A study of Homo sapiens with 7 samples.

Results

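The genes described here encode enzymes that add or remove acetyl and methyl groups on histones, together with the scaffold proteins that carry some of these enzymes. The 48 members, out of 20423 genes in the expression file, were taken by name from a list of acetyltransferases, deacetylases, sirtuins, methyltransferases, demethylases and corepressor scaffolds. They were sorted into 12 classes by enzyme family. All 48 were found in the file, and none was dropped by a filter. Their levels come from 1 polyA RNA-seq library of HCT116 cells, a line derived from a human colon carcinoma and grown in McCoy 5A medium with fetal bovine serum. The study around this library mapped insertions of the piggyBac (PB) transposon in the same line, with a transposase joined to SP1, a transcription factor (2 libraries) and with the wild-type transposase (3 libraries), and made 1 list of SP1 ChIP-seq peaks. The growth protocol, which all samples share, mentions G418 selection for transposition. It does not say whether the cells behind the RNA library carried a transposon.

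Histone acetylation is laid down by lysine acetyltransferases and taken off by deacetylases, and it is found at active promoters and enhancers. Histone methylation can mark active or silent chromatin, depending on the residue that carries it. Several of these proteins, among them EP300 and HDAC1, are known to bind SP1, a zinc finger protein that recognises GC-rich promoter sequences and can recruit either activating or repressing partners.

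Most of the modifier genes were expressed in HCT116 cells, at moderate levels. Levels are given as RPKM, reads per kilobase of transcript scaled to the mapped reads of the library, which corrects for length and so allows levels to be set side by side between genes. The depth of the library is not known, and its bulk RNA does not tell how many cells carried a transcript. With 1 library there was no spread to set a difference against, so no neighbours in the order of levels can be called different, and no test was made. At least 1 RPKM was reached by 44 of 48 members (91.7%), against 57.0% of all genes in the file. At least 10 RPKM was reached by 26 members (54.2%), against 24.4% of all genes. The median level was 11.8 RPKM for the members and 1.91 RPKM for all genes. By band of level, 20 members (41.7%) lay from 10 up to 30 RPKM, where 15.0% of all genes lay, and 1 member (2.08%) lay at 100 RPKM or above, where 2.43% of all genes lay. The median member stood above 78.2% of all genes. SP1 itself, at 47.96 RPKM, was exceeded by 4 members, PRMT1, HDAC1, PRMT5 and CARM1.

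**Figure D1:**
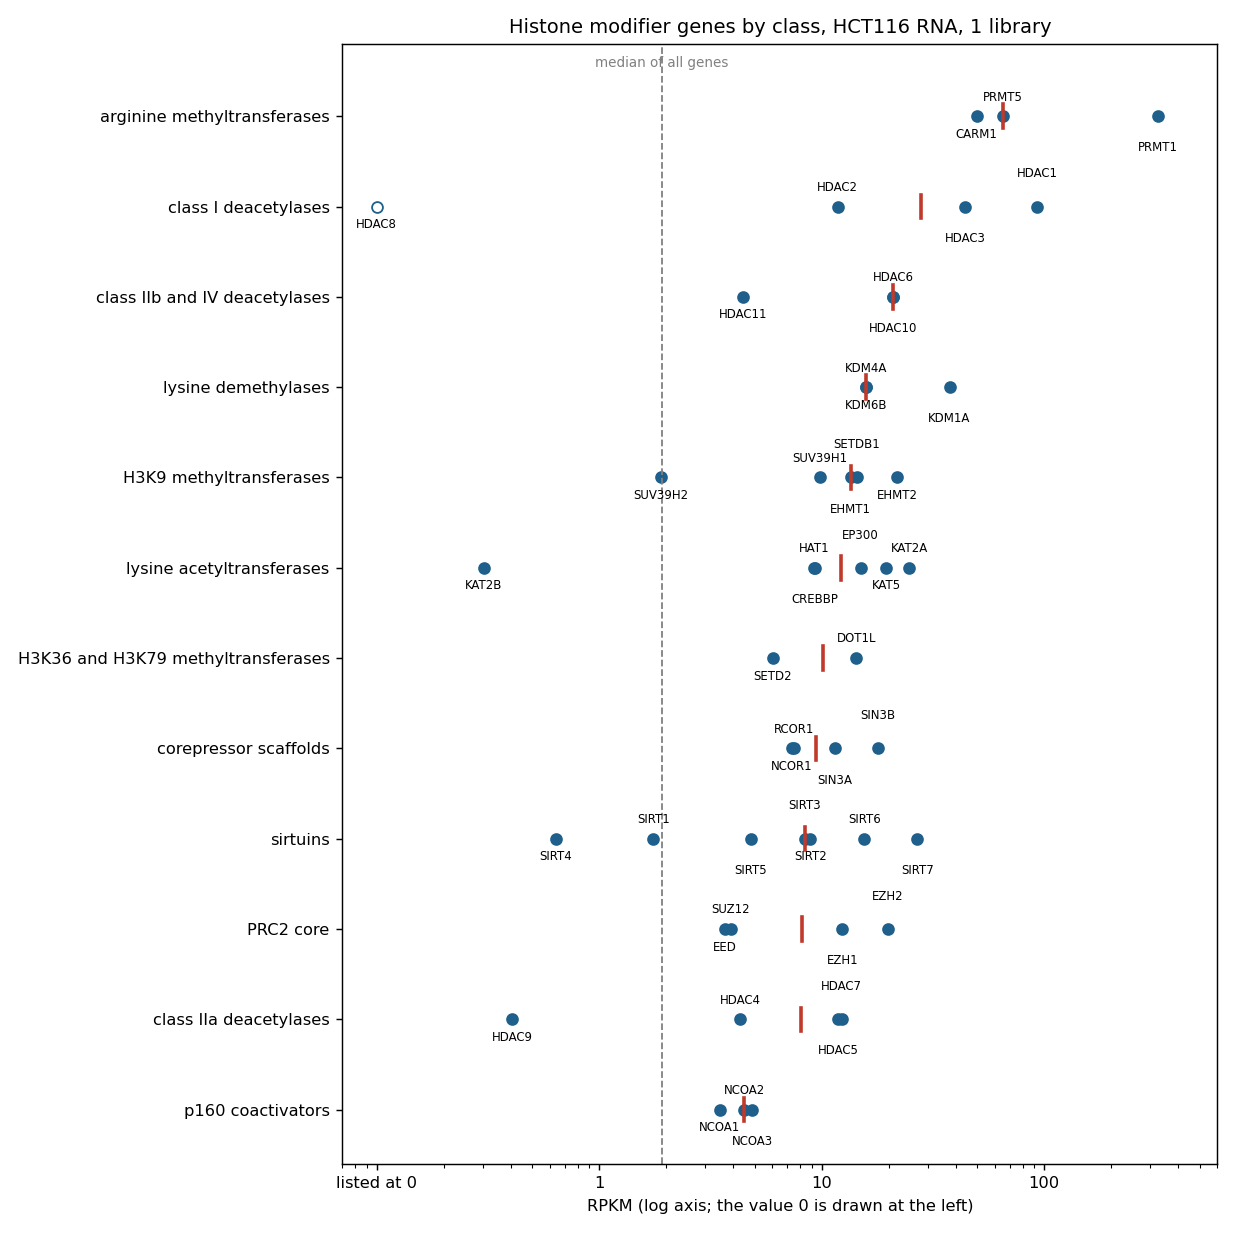
RPKM (log axis) of each of the 48 members in the HCT116 RNA library, 1 point per gene, by class. Red bars are class medians, the dashed line is the median of all genes (1.91 RPKM), and the open point is HDAC8, which was listed at 0. The arginine methyltransferases have the highest class median (65.4 RPKM) and the p160 coactivators the lowest (4.49 RPKM).

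**Figure D2:**
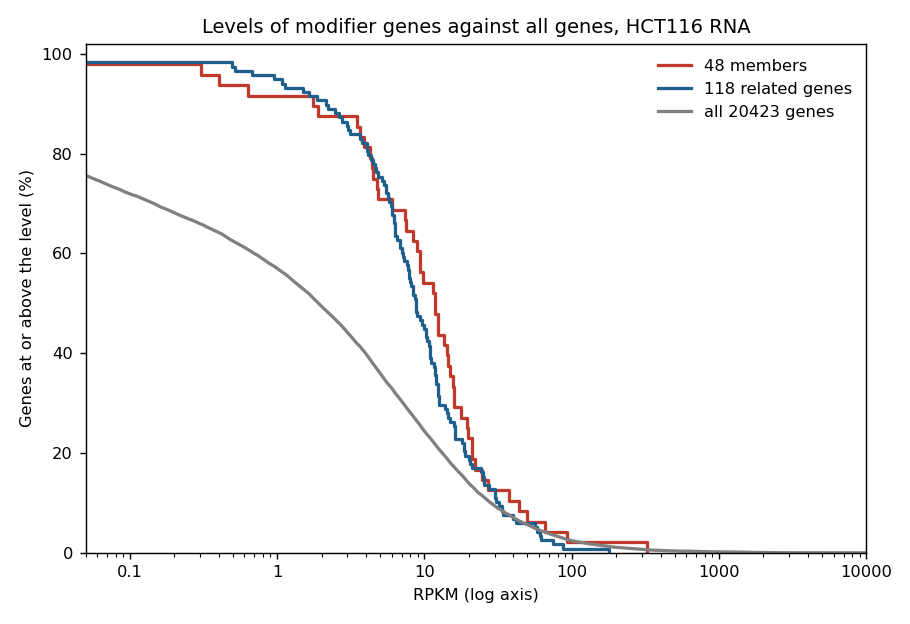
Share of genes (%) at or above each level of RPKM (log axis), for the 48 members, 118 related genes and all 20423 genes of the file. At 1 RPKM the curves stand at 91.7% for the members, 94.9% for the related genes and 57.0% for all genes, and above about 30 RPKM the 3 curves lie close together.

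The library was checked against cell type markers. Of 11 colon epithelium markers 6 reached 1 RPKM (54.5%), near the 57.0% of all genes. The count alone thus does not identify the cell type. KRT19 stood at 543, KRT8 at 378, KRT18 at 268 and EPCAM at 79.5 RPKM. CDH1 stood at 17.0 and CDX2, an intestinal lineage factor, at 9.19 RPKM. KRT20 (0.238), CDH17 (0.0464), VIL1 (0.0313) and CDX1 (0.0242) lay below 1 RPKM, and LGALS4 was listed at 0. Of the markers of other cell types, 1 of 5 fibroblast markers (COL1A1, 14.5 RPKM), 1 of 5 leukocyte markers (CD68, 8.65 RPKM) and 0 of 4 endothelial markers reached 1 RPKM. The fibroblast markers PDGFRB (0.135), COL1A2 (0.0277) and COL3A1 (0.00781) lay below it and DCN was listed at 0. Of the leukocyte markers CD14 (0.218) and ITGAM (0.118) lay below it, and PTPRC and CD3E were listed at 0. The endothelial markers KDR, VWF, PECAM1 and CDH5 had 0.163, 0.146, 0.0371 and 0.0104 RPKM. A value of 0 in this file is described only as listed at 0: 3398 genes (16.6%) had it, among them YWHAZ and EIF4A2, which most cells express.

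Arginine methyltransferases formed the highest class. PRMT1, which makes most of the asymmetric dimethylarginine in cells and methylates histone H4, led all members at 324 RPKM, rank 126 of all genes. PRMT5, which makes symmetric dimethylarginine, stood at 65.4 RPKM (rank 855). CARM1, a coactivator of nuclear receptors that methylates histone H3, stood at 49.7 RPKM (rank 1157). PRMT1 was 6.51 times CARM1 and 3.49 times HDAC1, the second highest member. Together the 3 genes held 41.6% of the summed RPKM of the members, and PRMT1 alone held 30.7%. Without PRMT1 the median of the other 47 members was 11.8 RPKM. The 6 genes of the list of other arginine methyltransferases, which also holds the PRMT5 partner WDR77, were lower, from PRMT2 at 25.5 RPKM to PRMT8 at 1.87 RPKM.

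Class I deacetylases were the next highest by median, and uneven in level. They include HDAC1, HDAC2 and HDAC3, the nuclear enzymes of the SIN3, NuRD, CoREST and NCoR complexes. HDAC1 stood at 92.6 RPKM (rank 552), HDAC3, the catalytic subunit of the NCoR complex, at 44.1 RPKM and HDAC2 at 11.8 RPKM. HDAC8 was listed at 0. The class median was 28.0 RPKM with HDAC8 and 44.1 RPKM without it. HDAC1 and HDAC2 are close paralogs that sit in the same complexes, and HDAC1 was 7.85 times HDAC2. HDAC1 held 62.4% of the RPKM of its class and 41.4% of that of all 11 zinc-dependent deacetylases.

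Promoter sequences are shown for 5 members whose levels and GC boxes differ, chosen after their values were seen. The GC box, GGGCGG on either strand, is the core of the sequence that SP1 is known to bind. Each stretch holds the 250 bases before the most upstream RefSeq start (GRCh38.p14), with GC boxes in capitals. They come from HDAC1 (chr1:32291833-32292082, plus strand), PRMT5 (chr14:22929377-22929626, minus strand), NCOA1 (chr2:24491004-24491253, plus strand), KAT2B (chr3:20040196-20040445, plus strand) and HDAC8 (chrX:72572844-72573093, minus strand). Overlapping boxes run together.
HDAC1: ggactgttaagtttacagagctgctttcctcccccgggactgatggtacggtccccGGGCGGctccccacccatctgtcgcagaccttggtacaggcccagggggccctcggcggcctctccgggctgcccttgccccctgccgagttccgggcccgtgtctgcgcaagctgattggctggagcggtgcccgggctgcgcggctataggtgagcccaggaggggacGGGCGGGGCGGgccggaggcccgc
PRMT5: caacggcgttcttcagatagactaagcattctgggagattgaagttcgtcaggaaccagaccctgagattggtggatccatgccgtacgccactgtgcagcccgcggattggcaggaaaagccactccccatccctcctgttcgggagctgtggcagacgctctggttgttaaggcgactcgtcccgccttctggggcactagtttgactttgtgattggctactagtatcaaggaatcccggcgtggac
NCOA1: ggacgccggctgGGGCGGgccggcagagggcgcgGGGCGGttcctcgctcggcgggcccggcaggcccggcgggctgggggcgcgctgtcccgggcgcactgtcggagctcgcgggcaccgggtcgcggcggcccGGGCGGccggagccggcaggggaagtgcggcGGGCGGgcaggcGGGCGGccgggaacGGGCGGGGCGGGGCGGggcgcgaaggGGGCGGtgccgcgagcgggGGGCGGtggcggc
KAT2B: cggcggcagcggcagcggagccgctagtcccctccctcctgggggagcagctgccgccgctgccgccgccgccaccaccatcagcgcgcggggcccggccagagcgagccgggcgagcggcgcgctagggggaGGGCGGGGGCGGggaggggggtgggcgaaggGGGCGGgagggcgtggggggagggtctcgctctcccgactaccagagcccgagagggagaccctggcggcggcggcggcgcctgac
HDAC8: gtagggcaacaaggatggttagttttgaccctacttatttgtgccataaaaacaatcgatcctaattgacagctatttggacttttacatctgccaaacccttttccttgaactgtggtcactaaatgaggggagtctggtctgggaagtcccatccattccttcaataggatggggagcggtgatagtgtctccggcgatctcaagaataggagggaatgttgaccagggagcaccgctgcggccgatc

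The HDAC1 stretch held 3 GC boxes at a level of 92.6 RPKM, and that of PRMT5 held 0 at 65.4 RPKM. NCOA1 had 10 boxes in 250 bases of 87.2% GC, the most boxes among the 44 members with a window analysed, and stood at 3.48 RPKM. It has 3 listed starts, and which of them HCT116 cells use was not examined. KAT2B had 3 boxes at 0.302 RPKM. HDAC8, listed at 0, had 0 boxes, and with the 50 bases after the start its window had the lowest GC content of the 5, 49.3%.

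Windows of 300 bases, 250 before and 50 after the start, were found for 44 members. Those of NCOA2, HDAC5, SIRT7 and DOT1L were not analysed here. At least 1 GC box lay in 29 of 44 member windows (65.9%), against 61.4% of 12634 genes of the expression file with a window in the table, and 72.9% of the 7879 of these at or above 1 RPKM. The members' share thus lay between these backgrounds. At least 3 boxes lay in 16 member windows (36.4%), in 30.6% of the genes at or above 1 RPKM and in 23.9% of the genes of the file. Median GC content was 69.3% in member windows, 66.0% in those of genes at or above 1 RPKM and 63.3% in those of the file. The median level was 11.4 RPKM for the 29 members with a box and 11.8 RPKM for the 15 without. Over the genes of the file, the median was 4.98 RPKM for genes with a box and 0.474 RPKM for genes without. Of 87 boxes in the member windows 44 (50.6%) had their centre in the 100 bases before the start, and some of these ran across it. This share was not computed for all genes. RCOR1 and HDAC1 had 6 boxes each in the full window and CARM1, KDM6B and HDAC11 had 5 each. A match to these letters is not a binding site. The SP1 peaks and the insertions have hg18 positions, and no gene positions of that build were used here, so neither was tied to the members.

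**Figure D3:**
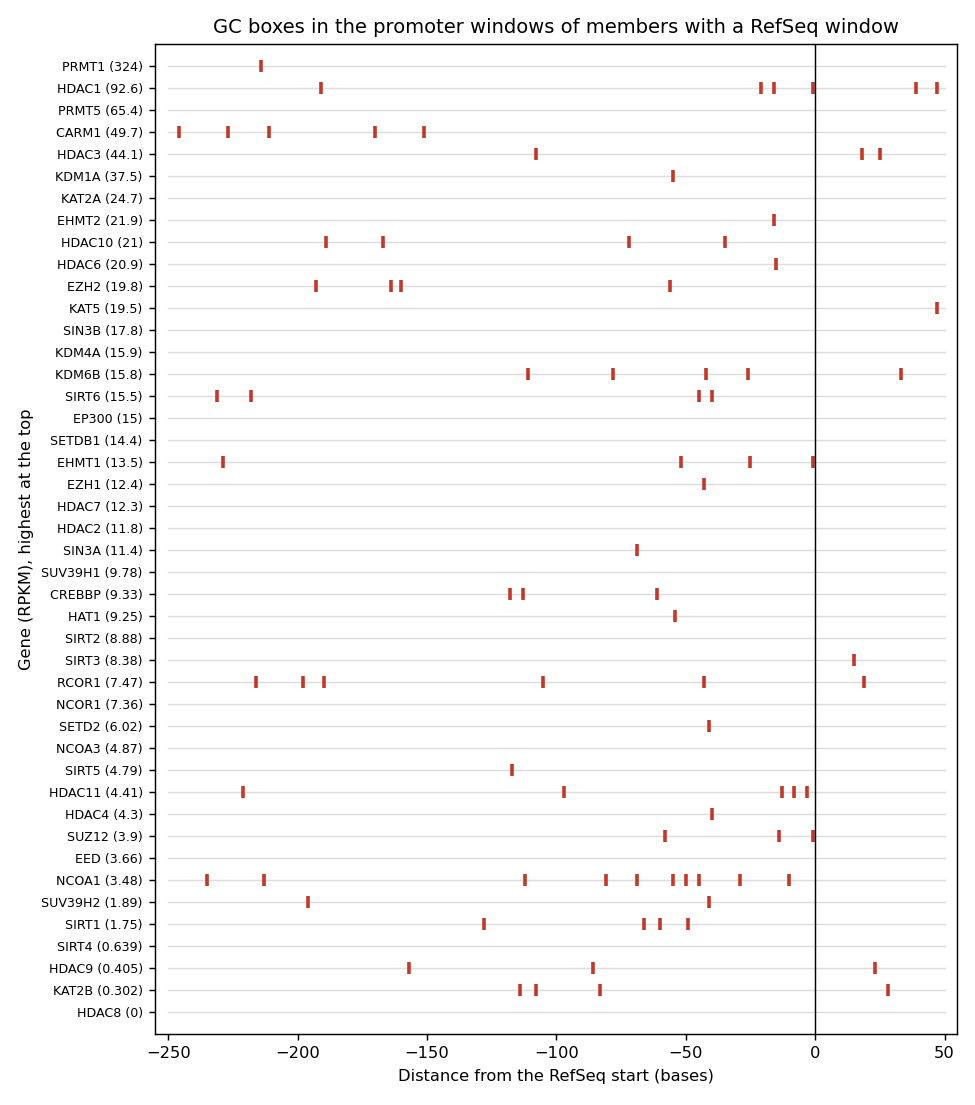
Positions of GC boxes (red ticks) in the 300-base promoter windows of 44 members, as distance in bases from the most upstream RefSeq start, with genes ordered by RPKM and the highest at the top. Boxes are present at genes of high level (HDAC1, 92.6 RPKM) and low level (NCOA1, 3.48 RPKM), and absent from 15 members across the range.

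Among the remaining zinc-dependent deacetylases, the median was 20.9 RPKM for the 3 genes of class IIb and IV and 8.06 RPKM for the 4 of class IIa, and the levels of the classes overlapped. HDAC6, the cytoplasmic deacetylase of tubulin, and HDAC10, a polyamine deacetylase, had nearly the same level, 20.9 and 21.0 RPKM. HDAC11, the class IV enzyme, which removes long fatty acyl groups, stood at 4.41 RPKM. Class IIa enzymes shuttle between nucleus and cytoplasm and bind MEF2 factors. Of these HDAC7 (12.3 RPKM) and HDAC5 (11.8 RPKM) were alike in level, HDAC4 followed at 4.30 RPKM and HDAC9 was at 0.405 RPKM. HDAC7 was 30.3 times HDAC9, or 9.45 times with 1 RPKM added to each.

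Sirtuins, the deacylases that use NAD+, spanned from 0.639 to 26.9 RPKM, and 6 of 7 reached 1 RPKM. The nuclear SIRT7, which removes acetyl groups from H3K18, was the highest at 26.9 RPKM (rank 2151). SIRT6, a chromatin-bound deacetylase of H3K9, followed at 15.5 RPKM. The mainly cytoplasmic SIRT2 stood at 8.88 RPKM. Of the mitochondrial sirtuins, SIRT3 stood at 8.38 RPKM, SIRT5, which removes succinyl and malonyl groups, at 4.79 RPKM, and SIRT4 at 0.639 RPKM. SIRT1, a nuclear deacetylase of p53 and histones, was at 1.75 RPKM, below the median of all genes. SIRT7 was 15.4 times SIRT1, or 10.1 times with 1 RPKM added to each, a ratio chosen after the values were seen.

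Lysine acetyltransferases had a median close to that of the zinc-dependent deacetylases, 12.1 and 11.8 RPKM, but no member as high as HDAC1. Both groups had genes below 1 RPKM: 5 of 6 acetyltransferases (all but KAT2B) and 9 of 11 deacetylases (all but HDAC9 and HDAC8) reached it. KAT2A, the acetyltransferase of the SAGA complex, was the highest at 24.7 RPKM (rank 2324). Its paralog KAT2B, also known as PCAF, which can take its place in the complex, was at 0.302 RPKM, so that KAT2A was 81.8 times KAT2B, or 19.8 times with 1 RPKM added to each. KAT5 (TIP60), the catalytic subunit of NuA4, stood at 19.5 RPKM. The enhancer coactivators EP300 and CREBBP stood at 15.0 and 9.33 RPKM, a ratio of 1.60. HAT1, which acetylates newly made histone H4, stood at 9.25 RPKM. The p160 coactivators, which bind nuclear receptors and bring in EP300 and CREBBP, were low and even: NCOA3 stood at 4.87 RPKM, NCOA2 at 4.49 RPKM and NCOA1 at 3.48 RPKM. The summed level of the 11 zinc-dependent deacetylases was 224 RPKM and that of the 6 lysine acetyltransferases 78.0 RPKM. This ratio of 2.86 was 1.68 when HDAC1 was left out. It was 1.37 when the 7 genes of the related list of other acetyltransferases were added to the 6. That list also holds NAT10 (25.2 RPKM), ELP3 (12.4 RPKM) and CDYL (10.9 RPKM), so 1.37 is not a ratio for histone acetyltransferases alone. The 11 deacetylases include HDAC6, HDAC10 and HDAC11, described above by other substrates. So 2.86, 1.68 and 1.37 are not ratios for histone deacetylases alone either. Sums of RPKM weigh genes by transcript number and not by enzyme activity.

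All 4 corepressor scaffolds reached 1 RPKM, and all 4 lay below HDAC1 and HDAC3. HDAC2, at 11.8 RPKM, lay below SIN3B and close to SIN3A. SIN3B stood at 17.8 RPKM and SIN3A, its paralog, at 11.4 RPKM, a ratio of SIN3A to SIN3B of 0.641. RCOR1, the CoREST scaffold, stood at 7.47 RPKM and NCOR1, the nuclear receptor corepressor, at 7.36 RPKM. HDAC1 was 8.12 times SIN3A, HDAC3 was 5.99 times NCOR1, and the demethylase KDM1A was 5.02 times RCOR1. These comparisons of transcript levels were chosen after the values were seen. Each enzyme also sits in other complexes.

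The subunits of PRC2, the complex that methylates H3K27, had unequal transcript levels. EZH2, the main catalytic subunit of dividing cells, stood at 19.8 RPKM and its paralog EZH1 at 12.4 RPKM, a ratio of 1.60. The core subunits EED, which binds the methylated residue, and SUZ12, which holds the complex together, stood at 3.66 and 3.90 RPKM. EZH2 was 5.40 times EED and 5.07 times SUZ12, ratios chosen after the values were seen. RBBP4 and RBBP7, PRC2 subunits that were listed here with the NuRD partners, stood at 9.66 and 39.7 RPKM. The pseudogene SUZ12P was listed at 2.98 RPKM, and reads of SUZ12 and of this near copy may not have been told apart. Of 5 accessory subunits, all of which reached 1 RPKM, PHF19 was the highest at 30.3 RPKM and AEBP2 the lowest at 2.20 RPKM.

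Methyltransferases of H3K9, a mark of silent chromatin, reached 1 RPKM in 5 of 5 cases. EHMT2 (G9a) and its partner EHMT1, which work as a dimer, stood at 21.9 and 13.5 RPKM, a ratio of 1.62. SETDB1, which silences retroelements with zinc finger repressors, stood at 14.4 RPKM. SUV39H1, which methylates pericentric heterochromatin, stood at 9.78 RPKM and was 5.18 times its paralog SUV39H2, at 1.89 RPKM. DOT1L, the methyltransferase of H3K79, stood at 14.3 RPKM. SETD2, which makes the H3K36 trimethyl mark on transcribed genes, stood at 6.02 RPKM.

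All 3 demethylases lay above 10 RPKM. KDM1A (LSD1), which takes methyl groups from H3K4 within the CoREST complex, was the highest at 37.5 RPKM (rank 1553). KDM4A, which acts on H3K9 and H3K36, and KDM6B, which acts on H3K27, were nearly equal at 15.9 and 15.8 RPKM. The 18 other lysine demethylase genes had a lower median, 5.52 RPKM. Among them KDM5C was the highest at 18.5 RPKM and KDM5A was listed at 0.

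**Figure D4:**
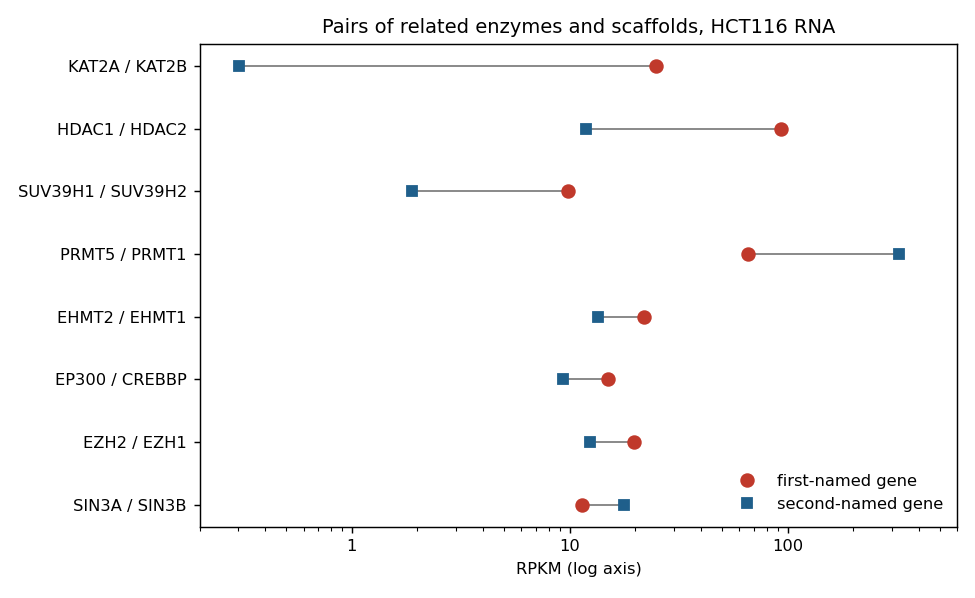
RPKM (log axis) of both genes in 8 pairs of related enzymes or scaffolds, ordered by the size of the ratio with the largest at the top. In KAT2A and KAT2B, HDAC1 and HDAC2, SUV39H1 and SUV39H2, and PRMT5 and PRMT1 the levels are at least 2-fold apart, and in the other 4 pairs they are less than 2-fold apart.

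Of the 8 pairs, 4 differed by at least 2-fold, a limit that was chosen and not found in the data: KAT2A over KAT2B at 81.8 (19.8 with 1 RPKM added to each), HDAC1 over HDAC2 at 7.85, SUV39H1 over SUV39H2 at 5.18 and PRMT5 over PRMT1 at 0.202. The other 4, EHMT2 over EHMT1, EP300 over CREBBP, EZH2 over EZH1 and SIN3A over SIN3B, had ratios of 1.62, 1.60, 1.60 and 0.641. PRMT5 and PRMT1 share a name and a substrate residue and make different products.

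Partners of these enzymes and further enzymes of the same kinds were taken from 10 related lists. Over these lists 112 of 118 genes (94.9%) reached 1 RPKM, and 53 (44.9%) reached 10 RPKM, with a median of 8.75 RPKM. The NuRD partners, which combine HDAC1 or HDAC2 with chromatin remodelling, had the highest median, 24.2 RPKM, from MTA1 at 57.6 to GATAD2B at 5.94 RPKM. The SIN3 partners had the lowest median, 4.17 RPKM, although SAP18 reached 61.5 RPKM, and ARID4A, at 0.671 RPKM, was their lowest. Among SAGA and NuA4 partners RUVBL2, an ATPase of several remodelling complexes, was the highest at 180 RPKM, and SUPT7L was listed at 0. CoREST and NCoR partners ran from HMG20B at 74.2 to TBL1XR1 at 4.47 RPKM. COMPASS complexes methylate H3K4. All 15 genes listed as COMPASS subunits reached 1 RPKM, from MEN1 at 33.9 to RBBP5 at 2.99 RPKM. The 7 genes of the list of other acetyltransferases ran from NAT10 at 25.2 to MYST4 at 3.66 RPKM. Other lysine methyltransferases ran from WHSC1 at 30.2 to SETDB2 at 0.490 RPKM.

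**Figure D5:**
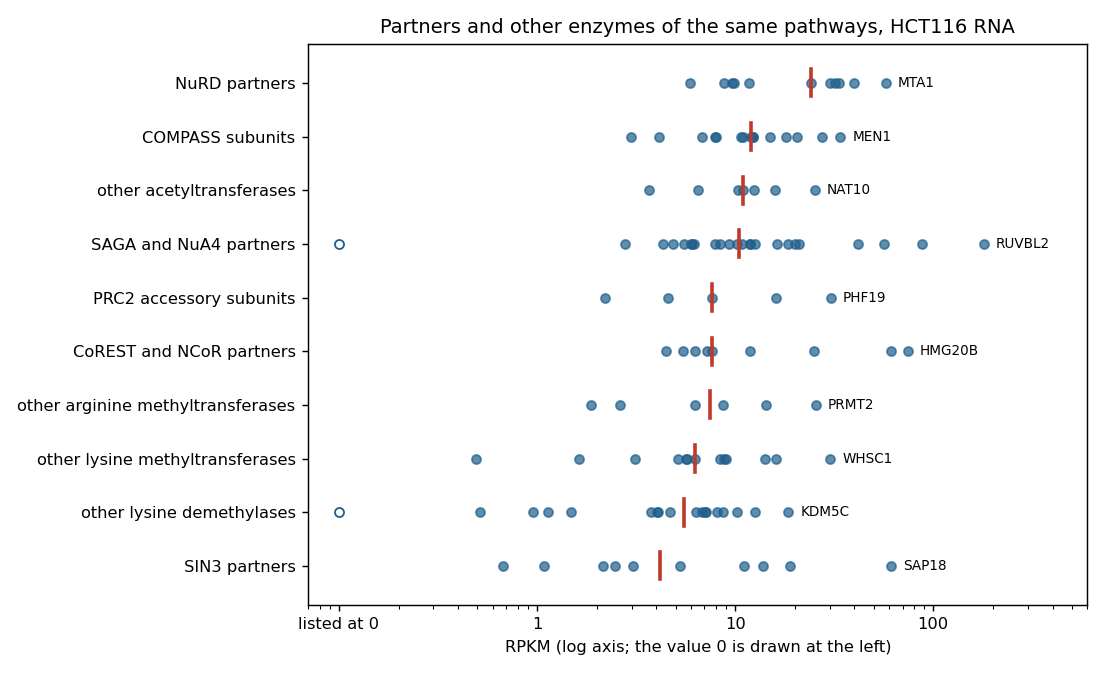
RPKM (log axis) of the genes of 10 related lists, 1 point per gene, with red bars at the list medians and open points for genes listed at 0. The highest gene of each list is named. NuRD partners have the highest median (24.2 RPKM) and SIN3 partners the lowest (4.17 RPKM).

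In the GRCh38 annotation 9 members overlap another protein-coding gene. These are CARM1 (with YIPF2), KDM1A (LUZP1), KAT5 (RNASEH2C), KDM6B, DOT1L (AP3D1 and PLEKHJ1), HDAC7 (SLC48A1), SIRT3 (RIC8A), NCOR1 (TTC19) and SUV39H2 (DCLRE1C). A long non-coding RNA gene is overlapped by 15 members, and 21 members overlap a gene of either kind. The levels of the non-coding neighbours were not examined. The strand used in counting is not stated, so reads in shared stretches may have been given to either gene. AP3D1 was listed at 58.8 and PLEKHJ1 at 37.3 RPKM beside DOT1L at 14.3 RPKM, and YIPF2 at 37.2 RPKM beside CARM1 at 49.7 RPKM. The part of these neighbours in the members' values was not tested.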

How the data were processed

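Levels were read from 1 polyA RNA-seq library of HCT116 cells. The authors deposited an RPKM value for each RefSeq gene. They used TopHat for alignment to hg18 and Cufflinks for the values, as the deposited readme says, and the submitters' processing notes give 1.1.0 as the Cufflinks version. The sources used here do not state depth, strand or filters, so no interval or floor was computed, and the precision of low values is unknown.

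The members, classes, related lists and pairs were chosen with earlier results of these data known. All members, the highest and lowest gene of each related list and the cell type markers are named, except 1 marker that is not reported here; other genes were chosen after their values were seen. Ratios between members outside the 8 pairs were also chosen after the values were seen. Members were counted at 1 and 10 RPKM beside all genes. Class means used log2(RPKM + 1). Related genes carry older symbols in the file; 9 newer or unlisted names were not matched. RefSeq promoter windows (GRCh38.p14) were joined by symbol, taking the most upstream start, and searched for GGGCGG on both strands, overlaps counted. The search and the percentiles were tested on simulated data. No p-value was computed. Python 3.11.15 with pandas 2.3.3, NumPy 2.4.6, SciPy 1.17.1 and matplotlib 3.10.9 was used. Insertions and peaks were not used.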

Additional observations from a re-analysis of the deposited data

How the results depend on the processing

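The count of 44 members at 1 RPKM was 45 at 0.5 RPKM and 42 at 2 RPKM, and 35 of 39 when members overlapping a protein-coding gene were left out, an alternative added after the data were seen. The median of 11.8 RPKM was 12.3 with members at or above 1 RPKM and 11.4 without the overlapping members. The median percentile of 78.2 was 73.9 among genes above 0 and 63.0 among genes at or above 1 RPKM. The gap between the highest and lowest class mean was 4.30 on the log2(RPKM + 1) scale and 4.58 with a pseudocount of 0.1. With that pseudocount the place of 7 of 12 classes changed, and class I deacetylases, which include HDAC8 listed at 0, moved to place 7, against place 3, and class IIa deacetylases took the lowest place from the p160 coactivators. With members at or above 1 RPKM the place of 9 of 12 classes changed, and class I deacetylases moved to place 2. The share of member windows with a GC box was 65.9% with GGGCGG. It was 29.5% with the longer GGGGCGGGG, against 23.8% of the genes of the file and 29.4% of those at or above 1 RPKM. In the 100 bases before the start it was 52.3%, against 45.2% and 55.1%. Over any listed start, a setting added after the data were seen, it was 68.2%, against 67.7% and 79.8%. The ratio of KAT2A to KAT2B was 19.8 with 1 RPKM added to each, the other 7 pairs kept their direction, and 4 of 8 pairs stayed at least 2-fold apart.

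With 1 library, neither the spread between cultures nor counting error is known, so the error of low values such as those of KAT2B and HDAC9 is unknown. Insertions and peaks near member starts were not analysed here, so their alternatives were not run, since gene positions in hg18 were not used here. No paired analysis was possible because the result comes from no test and the RNA library has no replicate.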
